A study of Mus musculus with 10 samples.

Results

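The genes described are 33 genes of sterol and fatty acid synthesis and of its control, read across 10 bulk RNA libraries from tumours of mice that differ at 1 codon of Ptpn22, which encodes the tyrosine phosphatase Pep. The members were chosen by symbol from the table's 55487 gene rows, with the condition that a gene reached 1 TPM (a transcript abundance corrected for gene length, in which every library adds up to the same total) in at least 5 libraries. All 33 met it, among 13930 genes that did. They comprise 5 regulators, 16 enzymes of the sterol arm, 1 enzyme of cholesterol ester synthesis and 11 enzymes of the fatty acid arm. No member shares its symbol with another row. The filter used no difference between genotypes, but the list was drawn up with earlier results of these data known.

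The S452A group held 5 mice in which 1 serine of Pep is replaced by alanine, and the WT group held 5 mice with the unaltered protein. Both groups were injected with the murine colon carcinoma line MC38 when 8 weeks old, and tumours were removed 18 days later and digested with collagenase. Cells were sorted as CD8+ T cells, and 40 ng of RNA went into each directional library. In each genotype the labels give mice numbered 1 to 5, and they name no strain, sex or litter, and do not say whether the change is present in cells other than T cells. The design text writes the residue number with its last digits exchanged, and the spelling of the title and sample labels is used here.

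The labelled cell type went against the markers. The summed level of 8 T cell genes was 15.0 to 135 TPM in S452A libraries and 12.1 to 126 TPM in WT libraries, with each of the 8 above 1 TPM on average. The summed level of 10 macrophage genes was 18686 to 24263 TPM in S452A libraries and 17828 to 24816 TPM in WT libraries, and each of the 10 averaged at least 100 TPM. The values below are therefore levels in libraries of this content and cannot be credited to CD8+ T cells. Ly6g of neutrophils and Lep of adipocytes were listed at 0 in every library. Ptpn22 was at 18.1 ± 4.84 TPM in S452A libraries and 14.7 ± 3.82 TPM in WT libraries (SD, n = 5 each), which is 0.29 higher on the log2 scale (SE 0.21, limma adjusted p = 0.952). A codon change need not alter a transcript's level, and without reads the genotype itself could not be checked.

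Cells make cholesterol from acetyl-CoA through mevalonate, isoprenoid diphosphates, squalene and lanosterol, and make fatty acids by carboxylating acetyl-CoA, building palmitate and then elongating and desaturating it. Both routes are controlled by the transcription factors SREBP1 (gene Srebf1) and SREBP2 (Srebf2), which wait in the membrane of the endoplasmic reticulum bound to the escort protein Scap. When sterol is plentiful, the Insig proteins hold Scap back. When it is scarce, Scap carries SREBP to the Golgi, where proteases release the part that enters the nucleus, so that SREBP activity can move without any change in Srebf1 or Srebf2 transcripts. SREBP2 is known mainly for sterol genes and SREBP1 for fatty acid genes, and both act together with the CCAAT-binding factor NF-Y and with Sp1. In macrophages, cholesterol taken up from dead cells and lipoproteins is stored as ester in lipid droplets.

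Promoter windows of 5 enzymes are shown because they place the letters that many of these genes share. They are the 250 bases before the start site, from RefSeq (GRCm38.p6), 5′ to 3′ on the gene's strand. Capitals mark CCAAT or its reverse complement ATTGG, the letters that NF-Y binds, and TCACNCCAC, a core form of the sterol response element. The windows lie at chr13:119690101-119690350 on the plus strand, chr8:122443423-122443672 on the minus strand, chrX:8193513-8193762 on the minus strand, chr11:100528001-100528250 on the minus strand and chr11:120824548-120824797 on the minus strand. None of the 5 covers a base annotated as exon in GENCODE M21, and they were picked for that reason and to stand for the early and late sterol arm and the fatty acid arm.
Hmgcs1: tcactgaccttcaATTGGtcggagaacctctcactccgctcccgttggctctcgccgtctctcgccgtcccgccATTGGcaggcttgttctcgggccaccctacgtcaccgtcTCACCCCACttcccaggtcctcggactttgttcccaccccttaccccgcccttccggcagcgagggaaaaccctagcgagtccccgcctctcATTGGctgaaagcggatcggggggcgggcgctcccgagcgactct
Mvd: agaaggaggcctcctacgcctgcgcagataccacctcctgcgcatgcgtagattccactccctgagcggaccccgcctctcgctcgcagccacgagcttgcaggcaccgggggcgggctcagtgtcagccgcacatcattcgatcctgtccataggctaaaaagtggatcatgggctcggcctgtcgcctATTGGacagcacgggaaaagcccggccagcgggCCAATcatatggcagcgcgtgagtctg
Ebp: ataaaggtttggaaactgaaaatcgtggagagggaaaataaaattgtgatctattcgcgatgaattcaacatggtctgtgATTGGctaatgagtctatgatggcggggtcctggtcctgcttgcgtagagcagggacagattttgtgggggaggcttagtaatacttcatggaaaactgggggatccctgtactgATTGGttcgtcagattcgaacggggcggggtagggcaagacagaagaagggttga
Acly: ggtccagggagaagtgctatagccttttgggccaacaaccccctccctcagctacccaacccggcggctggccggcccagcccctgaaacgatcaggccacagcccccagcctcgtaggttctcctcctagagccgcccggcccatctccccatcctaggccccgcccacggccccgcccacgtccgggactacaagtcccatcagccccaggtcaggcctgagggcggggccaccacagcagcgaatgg
Fasn: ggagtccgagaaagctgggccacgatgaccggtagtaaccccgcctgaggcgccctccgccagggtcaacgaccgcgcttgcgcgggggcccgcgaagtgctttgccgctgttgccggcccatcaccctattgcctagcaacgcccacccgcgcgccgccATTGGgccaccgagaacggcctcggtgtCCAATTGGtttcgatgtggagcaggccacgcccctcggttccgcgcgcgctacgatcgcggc
The Hmgcs1 window holds 3 CCAAT matches and the only TCACNCCAC match among the 27 members with a window, which begins 137 bases before the start site. Mvd and Ebp hold 2 CCAAT matches each. Fasn holds 3, of which a pair overlap on opposite strands in the run CCAATTGG. The printed window of Acly holds none, and its single match begins 38 bases after the start site.

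RefSeq windows of 300 bases (250 before the start site and 50 after it) were at hand for 27 of the 33 members, as 36 windows, with several windows for 6 genes. Those without an entry are Fdps, Fdft1, Sqle, Scd1, Scd2 and Fads1. Counting a match on either strand in any window, CCAAT was present in 23 of the 27 members (85.2%), against 41.1% of 27025 genes with a window. All 13 sterol enzymes with a window held it, and 5 of 8 fatty acid enzymes did. GGGCGG, the letters Sp1 binds, was present in 22 of the 27 members (81.5%), against 38.2% of all genes. CACGTG, an E-box that SREBP can also bind and that is its own reverse complement, was present in 6 members (22.2%), against 8.09% of all genes. TCACNCCAC was present in 1 member (3.70%), against 1.44% of all genes. The comparison genes were not filtered by expression, as the members were, so the shares also compare expressed genes with a wider set. A match describes letters and not a bound site. In 21 of the 36 windows part of the stretch before the start site is annotated as exon in GENCODE M21, counting exons of any gene on either strand.

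All 33 genes were expressed, at a median that lay at the 55.1 percentile of the genes tested. Together they held 0.0589 to 0.0753% of the TPM in S452A libraries and 0.0615 to 0.0785% in WT libraries. Their median coefficient of variation over the 10 libraries was 23.4%, against 23.8% for all genes tested. In bulk RNA, fewer cells of a type and less RNA per cell cannot be told apart.

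**Figure D1:**
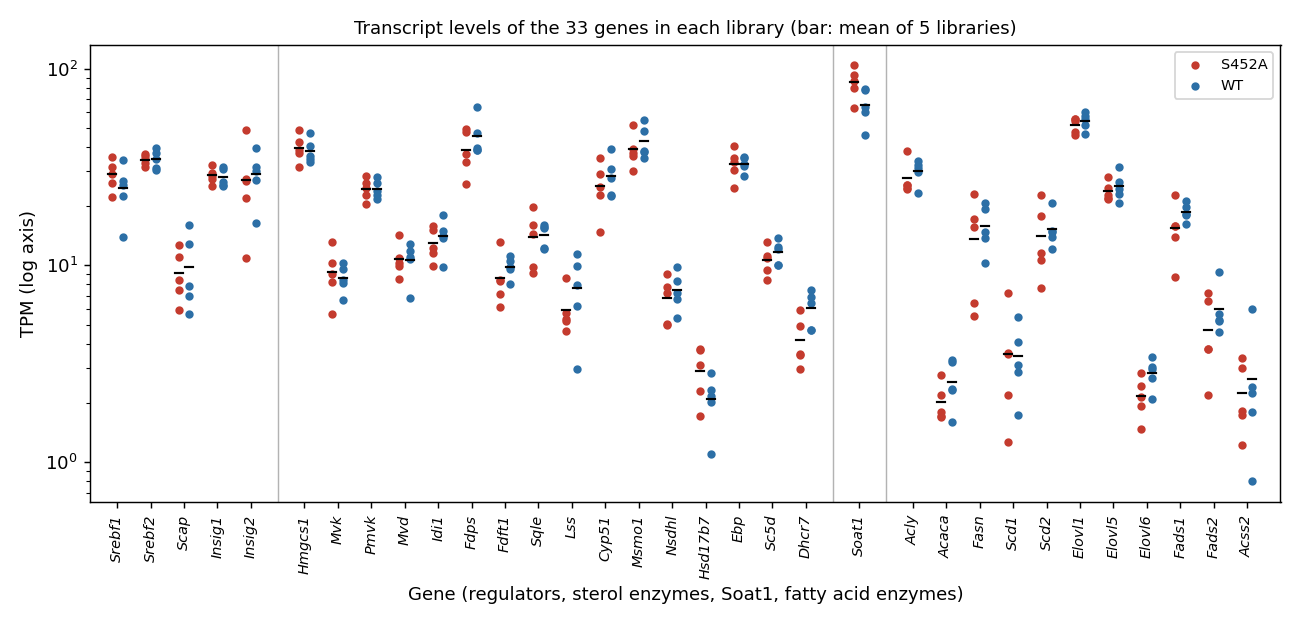
Level of each gene in each library, in TPM on a log axis; points are libraries (S452A left, WT right within a gene), bars are means of 5 libraries, and lines part regulators, sterol enzymes, Soat1 and fatty acid enzymes. The genotypes overlap for every one of the 33 genes, and Soat1 lies above the other members on average.

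Among the regulators, Srebf2 was the steadiest member of the set. Srebf2 (chromosome 15, 82147181 to 82205379, plus strand, GRCm38) was at 36.8, 31.8, 35.8, 32.9 and 34.9 TPM in S452A libraries 1 to 5, and at 39.5, 31.1, 34.9, 37.1 and 30.5 TPM in WT libraries 1 to 5. The WT values enclosed all 5 S452A values, and the log2 difference (S452A minus WT, on the log2(TPM + 1) scale used throughout) was -0.0020 (SE 0.11, 95% interval -0.23 to 0.23). Its coefficient of variation was 8.44%, the lowest of the 33. Insig1, whose own transcription SREBP2 drives, was nearly as steady in its own row, at 28.7 ± 2.65 TPM in S452A libraries and 28.0 ± 2.93 TPM in WT libraries (SD, n = 5 each), a difference of 0.04. With the near-identical copy Gm37784 added it was at 37.3 ± 6.41 TPM in S452A libraries and 34.2 ± 12.5 TPM in WT libraries (SD, n = 5 each), a difference of 0.16.

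Srebf1, Scap and Insig2 varied more. Srebf1 (chromosome 11, 60199089 to 60222581, minus strand) was at 29.2, 22.4, 26.3, 31.6 and 35.6 TPM in S452A libraries 1 to 5, and at 14.0, 25.7, 34.3, 27.0 and 22.4 TPM in WT libraries 1 to 5. The groups overlapped, WT library 1 was the lowest and S452A library 5 the highest, and the difference was 0.26 (SE 0.21, limma adjusted p = 0.952). With each library left out in turn it ran from 0.08, without WT library 1, to 0.39. Insig2, the form of Insig that is not a strong SREBP target, was at 11.0, 48.9, 27.6, 22.0 and 26.9 TPM in S452A libraries 1 to 5, and at 27.3, 16.4, 39.6, 31.6 and 30.2 TPM in WT libraries 1 to 5. Its lowest and highest libraries were both S452A, 4.47-fold apart, and the difference was -0.18 (SE 0.33). Leaving out S452A library 2 gave -0.42 and leaving out S452A library 1 gave 0.10, so 1 library turned its sign. Scap was at 9.11 ± 2.71 TPM in S452A libraries and 9.86 ± 4.36 TPM in WT libraries (SD, n = 5 each), a difference of -0.05 (SE 0.27).

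In the early sterol arm, which runs from acetyl-CoA to the isoprenoid diphosphates, the 2 genotypes had close means. Hmgcs1 (chromosome 13, 119690379 to 119708260, plus strand), the HMG-CoA synthase that feeds the mevalonate step, was at 48.5, 42.5, 31.5, 38.7 and 37.3 TPM in S452A libraries 1 to 5, and at 34.6, 35.9, 46.9, 33.4 and 40.6 TPM in WT libraries 1 to 5. The highest and the lowest value were both S452A, in libraries 1 and 3, and the difference was 0.05 (SE 0.14). Mvk, Pmvk and Mvd, which turn mevalonate into isopentenyl diphosphate, differed by 0.07, -0.0031 and 0.03. Idi1, the isomerase of that product, was at 12.9 ± 2.49 TPM in S452A libraries and 14.2 ± 2.98 TPM in WT libraries (SD, n = 5 each), a difference of -0.12. With its copy Gm13502 added it was at 29.8 ± 5.57 TPM in S452A libraries and 31.7 ± 9.04 TPM in WT libraries (SD, n = 5 each), a difference of -0.06.

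Fdps, which condenses the isoprenoid units into farnesyl diphosphate, was at 47.6, 49.1, 26.0, 33.6 and 36.8 TPM in S452A libraries 1 to 5, and at 38.4, 39.4, 64.0, 38.6 and 47.2 TPM in WT libraries 1 to 5. S452A library 3 was the lowest and WT library 3 the highest, 2.46-fold apart, with the rest mixed, and the difference was -0.24 (SE 0.19). Reads of Fdps and Idi1 are shared with annotated copies: Gm3571, 98.9% identical to Fdps, averaged 32.0 TPM, and Gm13502, identical to Idi1 over the aligned length, averaged 17.2 TPM. With its 3 annotated copies added, Fdps was at 77.7 ± 20.6 TPM in S452A libraries and 92.4 ± 22.6 TPM in WT libraries (SD, n = 5 each), so the values of these 2 enzymes are uncertain as to which locus they come from. The same holds for Fdft1, Msmo1, Acaca, Elovl6 and Insig1, each with 1 copy that took less than the gene's own mean TPM.

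Squalene and lanosterol are made by Fdft1, Sqle and Lss. Fdft1, the squalene synthase, was at 8.64 ± 2.65 TPM in S452A libraries and 9.79 ± 1.15 TPM in WT libraries (SD, n = 5 each), a difference of -0.20 (SE 0.18). Its exons overlap those of Ctsb on the opposite strand, which averaged 1629 TPM. The library kit keeps strand, but no source used here gives the strand setting of the counting. Exons of Srebf1, Cyp51, Elovl1 and Acss2 also overlap tested genes on the opposite strand, at lower levels (2.29 to 18.2 TPM). Sqle, the squalene epoxidase and a rate-limiting step, was at 19.9, 16.1, 9.82, 14.5 and 9.18 TPM in S452A libraries 1 to 5, and at 12.3, 15.5, 16.0, 12.1 and 15.7 TPM in WT libraries 1 to 5. The S452A values spread wider on both sides and enclosed all 5 WT values, and the difference was -0.08 (SE 0.20). Lss, the lanosterol synthase, was at 5.90 ± 1.56 TPM in S452A libraries and 7.71 ± 3.29 TPM in WT libraries (SD, n = 5 each), a difference of -0.26 (SE 0.29), with both its lowest (2.98 TPM) and highest value (11.4 TPM) in WT.

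The late sterol arm turns lanosterol into cholesterol. Cyp51, the lanosterol demethylase, was at 29.2, 35.2, 14.9, 25.1 and 22.7 TPM in S452A libraries 1 to 5, and at 28.0, 22.4, 39.0, 22.7 and 30.7 TPM in WT libraries 1 to 5. Library 3 was again the lowest of S452A and the highest of WT, and the difference was -0.19 (SE 0.22). It ran from -0.31 to -0.01 with each library left out in turn, the end nearest 0 without S452A library 3. Msmo1 and Nsdhl, which strip methyl groups from the ring, differed by -0.14 (SE 0.16) and -0.13 (SE 0.20). The sterol isomerase Ebp differed by -0.0078 and the desaturase Sc5d by -0.12.

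The largest sterol enzyme differences were in Dhcr7 and Hsd17b7, in opposite directions. Dhcr7 (chromosome 7, 143823145 to 143848410, plus strand), the reductase of the last step to cholesterol, was at 4.92, 2.99, 3.54, 3.49 and 5.95 TPM in S452A libraries 1 to 5, and at 6.93, 6.45, 4.68, 7.52 and 4.69 TPM in WT libraries 1 to 5. 3 of the S452A values lay below every WT value and the other 2 lay among them. The difference was -0.46 (SE 0.20, 95% interval -0.90 to -0.02), with an unadjusted limma p of 0.0432 and an adjusted p of 0.952, and the 2-sided exact permutation p was 0.0476. It ran from -0.57 to -0.37 with each library left out in turn. Hsd17b7, the ketosteroid reductase that works with Msmo1 and Nsdhl, was at 3.76, 3.72, 1.71, 3.13 and 2.29 TPM in S452A libraries 1 to 5, and at 2.03, 2.83, 2.32, 1.10 and 2.16 TPM in WT libraries 1 to 5. The groups overlapped, and the difference was 0.34 (SE 0.23, 95% interval -0.16 to 0.84, limma adjusted p = 0.952).

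Soat1, the enzyme of the endoplasmic reticulum that esterifies cholesterol for storage, had the highest mean level of the 33 and a difference above 0. Soat1 (chromosome 1, 156424525 to 156474331, minus strand) was at 86.7, 80.0, 104, 92.5 and 62.8 TPM in S452A libraries 1 to 5, and at 45.7, 78.2, 59.9, 78.6 and 63.6 TPM in WT libraries 1 to 5. In 4 S452A libraries it was above every WT library, and S452A library 5 was below 3 of the 5. Soat1 averaged 85.1 ± 15.2 TPM in S452A libraries and 65.2 ± 13.8 TPM in WT libraries (SD, n = 5 each). The difference was 0.39 (SE 0.17, 95% interval 0.02 to 0.75), with an unadjusted limma p of 0.0402 and an adjusted p of 0.952, and the exact permutation p was 0.0556. With each library left out in turn it ran from 0.27 to 0.49.

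In the fatty acid arm, the suppliers of carbon had modest differences. Acly, which makes acetyl-CoA from citrate, was at 38.2, 24.8, 24.4, 25.7 and 25.7 TPM in S452A libraries 1 to 5, and at 31.2, 32.2, 30.0, 33.8 and 23.3 TPM in WT libraries 1 to 5. S452A library 1 stood alone above all others, 4 of the WT libraries lay above the remaining S452A libraries, and the difference was -0.12 (SE 0.15). Acss2, which makes acetyl-CoA from acetate, was at 2.24 ± 0.92 TPM in S452A libraries and 2.65 ± 1.96 TPM in WT libraries (SD, n = 5 each), a difference of -0.07. It was the only member under 1 TPM in any library, at 0.80 TPM in WT library 2, and had the widest range, 7.46-fold. Acaca, the carboxylase that makes malonyl-CoA, was at 2.03 ± 0.45 TPM in S452A libraries and 2.57 ± 0.71 TPM in WT libraries (SD, n = 5 each), a difference of -0.22 (SE 0.20).

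Fasn (chromosome 11, 120805846 to 120824547, minus strand), the synthase that builds palmitate, was at 23.1, 17.1, 5.52, 15.7 and 6.41 TPM in S452A libraries 1 to 5, and at 20.9, 10.3, 19.4, 14.9 and 13.7 TPM in WT libraries 1 to 5. The S452A values enclosed the WT values, with library 1 above and libraries 3 and 5 below all of them. The difference was -0.35 (SE 0.35, limma adjusted p = 0.955), and it ran from -0.57 to -0.10 with each library left out in turn. Its 95% interval, -1.11 to 0.41, was the only one of the 33 to reach beyond 1 log2 unit.

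The desaturases, like Fasn, were highest in library 1 and lowest in library 3 among the S452A libraries. Scd1, the stearoyl-CoA desaturase that is the classical SREBP1 and LXR target, was at 7.20, 3.56, 1.27, 2.19 and 3.59 TPM in S452A libraries 1 to 5, and at 5.48, 2.88, 4.10, 1.73 and 3.13 TPM in WT libraries 1 to 5. Its lowest and highest library were both S452A, 5.67-fold apart, and the difference was -0.04 (SE 0.33) on the log2 scale although the mean TPM was slightly higher in S452A libraries (3.56 against 3.46). Scd2, its neighbour and close relative, was at 22.7, 17.8, 7.68, 11.6 and 10.7 TPM in S452A libraries 1 to 5, and at 12.2, 13.9, 20.6, 15.0 and 14.8 TPM in WT libraries 1 to 5. The S452A values again enclosed the WT values, and the difference was -0.18 (SE 0.25). Leaving out S452A library 1 gave -0.37 and leaving out S452A library 3 gave -0.0062. Scd2 exceeded Scd1 by 2.97 to 6.05-fold in TPM in S452A libraries and by 2.22 to 8.69-fold in WT libraries. The Scd1 and Scd2 transcripts are 95.5% identical, so reads may be divided between them in error.

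Fads1 and Fads2, which introduce double bonds into polyunsaturated fatty acids, had differences of similar size. Fads1 was at 22.8, 15.9, 8.69, 13.9 and 15.8 TPM in S452A libraries 1 to 5, and at 18.1, 19.9, 21.2, 18.3 and 16.2 TPM in WT libraries 1 to 5. S452A library 1 was the highest of all and the other 4 S452A libraries lay below every WT library, and the difference was -0.32 (SE 0.20, limma adjusted p = 0.952). Fads2 was at 7.23, 6.56, 2.19, 3.77 and 3.74 TPM in S452A libraries 1 to 5, and at 5.30, 5.21, 9.31, 4.57 and 5.65 TPM in WT libraries 1 to 5. The groups overlapped, with 3 S452A libraries below all WT libraries and WT library 3 above all others, and the difference was -0.35 (SE 0.27). With each library left out in turn, the difference ran from -0.47 to -0.14 for Fads1 and from -0.50 to -0.16 for Fads2, in both cases nearest 0 without S452A library 3.

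The elongases ranged from the most to among the least abundant members of the arm. Elovl1, which makes very long saturated chains, was at 51.8 ± 4.64 TPM in S452A libraries and 54.1 ± 5.31 TPM in WT libraries (SD, n = 5 each), a difference of -0.06. Elovl5, which lengthens polyunsaturated chains, was at 23.9 ± 2.62 TPM in S452A libraries and 25.3 ± 4.07 TPM in WT libraries (SD, n = 5 each), a difference of -0.07. Elovl6, which lengthens the palmitate that Fasn makes, was at 1.47, 2.83, 1.92, 2.44 and 2.15 TPM in S452A libraries 1 to 5, and at 3.41, 2.09, 3.04, 2.98 and 2.69 TPM in WT libraries 1 to 5. Only 1 S452A library and 1 WT library broke the separation, and the difference was -0.29 (SE 0.19, limma adjusted p = 0.952, exact permutation p = 0.0714). With its copy Gm11295 added, the difference was -0.45 and did not pass.

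Read as a whole, no member passed the test between genotypes. With limma over all 13930 genes, 0 of the 33 had an adjusted p under 0.05 (the smallest was 0.952), where 1 gene (0.00718%) passed among all genes. At an unadjusted p under 0.05 there were 2 members, Dhcr7 and Soat1, against 660 genes (4.74%), and by the exact permutation test 1 member and 621 genes. Of the members, 0 had genotypes whose libraries did not overlap, against 90 genes (0.646%). The 95% interval stayed within 1 log2 unit of 0 for 32 of the 33, against 86.9% of all genes.

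The signs of the differences were uneven. The difference was below 0 for 26 of the 33 members, against 53.4% of all genes tested. It was below 0 for 12 of 16 sterol enzymes, with a median of -0.12 and a range of -0.46 to 0.34, and for 11 of 11 fatty acid enzymes, with a median of -0.18 and a range of -0.35 to -0.04. For the regulators it was below 0 in 3 of 5, with a median of -0.0020. The median over all genes was -0.02. These genes share libraries and vary together, as described below, so the signs are not independent and no test is attached to the counts. With each library left out in turn, the median ran from -0.19 to -0.03 for the sterol enzymes and from -0.29 to -0.10 for the fatty acid enzymes. The sign of the difference held with each library left out in turn for 20 of the 33 genes. Among the fatty acid enzymes it did not hold for Scd1 (-0.29 to 0.17), Acss2 (-0.29 to 0.20) and Elovl5 (-0.14 to 0.0083). The smallest limma adjusted p of any member under any of the 21 alternatives was 0.738.

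**Figure D2:**
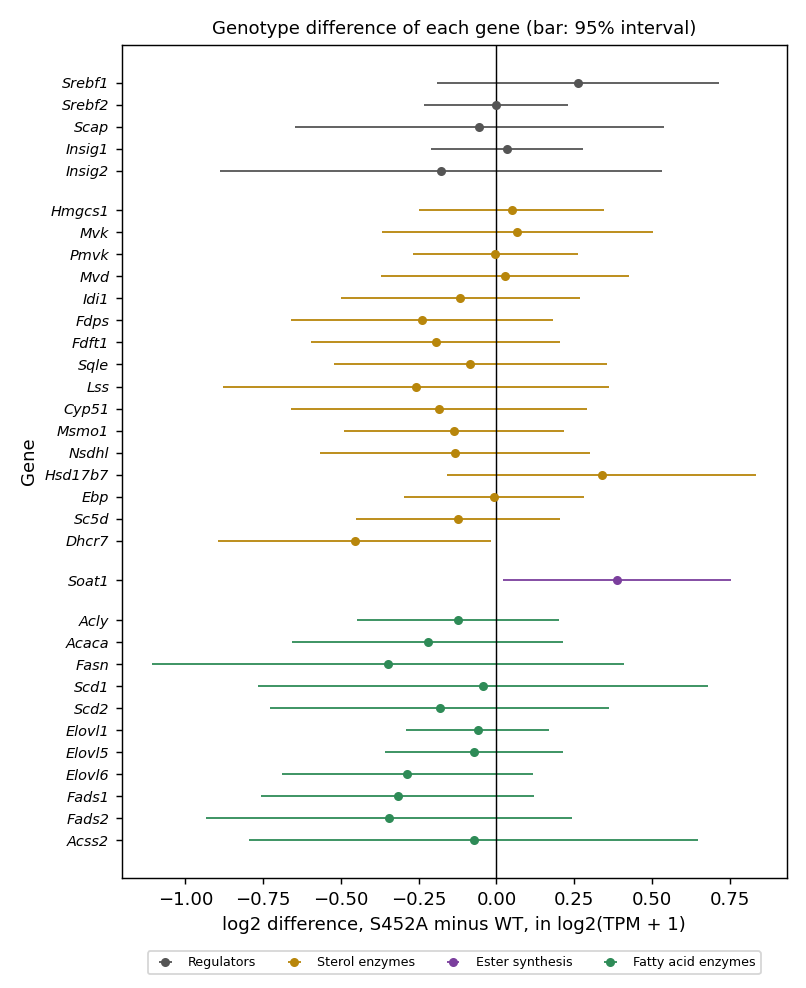
Genotype difference of each gene, S452A minus WT, on the log2(TPM + 1) scale; points are limma estimates from 5 libraries a group, bars are 95% intervals, and colours mark the role. All 11 fatty acid enzymes lie left of 0 with intervals that cross it, and the intervals of Dhcr7 (-0.90 to -0.02) and Soat1 (0.02 to 0.75) do not cross it before adjustment.

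For both arms, each genotype's mean lay inside the range of the other genotype's mice. The mean log2(TPM + 1) of the 16 sterol enzymes was 3.85 ± 0.24 in S452A libraries and 3.94 ± 0.15 in WT libraries (SD, n = 5 each). By library it was 4.16, 4.03, 3.56, 3.72 and 3.76 in S452A libraries 1 to 5, and 3.94, 3.83, 4.18, 3.83 and 3.91 in WT libraries 1 to 5. S452A libraries 1 and 2 and WT library 3 were the high ones, and S452A library 3 was the low one. The mean of the 11 fatty acid enzymes was 3.67, 3.43, 2.86, 3.20 and 3.21 in S452A libraries 1 to 5, and 3.70, 3.23, 3.61, 3.41 and 3.38 in WT libraries 1 to 5. Here S452A library 1 and WT libraries 1 and 3 were high and S452A library 3 was again the lowest.

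The mean log2 level of the sterol enzymes stood above that of the fatty acid enzymes in every library. The typical gene did not follow this. The median of the gene means was 12.4 TPM for the sterol enzymes and 14.7 TPM for the fatty acid enzymes. The sterol mean exceeded the fatty acid mean by 0.57 ± 0.09 log2 units in S452A libraries and 0.47 ± 0.14 in WT libraries (SD, n = 5 each). The value ran from 0.49 to 0.71 in S452A libraries and from 0.24 to 0.60 in WT libraries, so the groups overlapped. Over the 10 libraries the gap was 0.52, and it was 0.33 with a pseudocount of 5 in place of 1. In summed TPM, the sterol enzymes held 286 ± 50.7 TPM in S452A libraries and 305 ± 42.7 TPM in WT libraries (SD, n = 5 each). The fatty acid enzymes held 161 ± 29.5 TPM in S452A libraries and 177 ± 17.7 TPM in WT libraries (SD, n = 5 each). The sterol sum was 1.66 to 1.98 times the fatty acid sum in S452A libraries and 1.50 to 1.97 times in WT libraries. These sums run over 16 sterol and 11 fatty acid enzymes, so more genes enter the sterol sum.

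A few libraries held most extremes. S452A library 1 was the highest of the 10 for 8 of 16 sterol enzymes and 5 of 11 fatty acid enzymes, and WT library 3 was the highest for 7 and 2. WT library 1 was the highest for 4 of the 11 fatty acid enzymes. S452A library 3 was the lowest for 5 sterol and 6 fatty acid enzymes, and no sterol enzyme was above its own mean there. Over all genes tested, S452A library 3 was the lowest of the 10 for 19.0%, the highest for 13.1% and above the gene's mean for 45.9%. It was thus often extreme at both ends, whereas it was the highest for 0 of the enzymes of either arm. The share of all genes above their mean was 53.9% in S452A library 1 and 59.4% in WT library 3. The share of all genes for which the library was the highest was 11.8% for S452A library 1, 12.8% for WT library 1 and 12.1% for WT library 3. The fibroblast marker sum was lowest in S452A library 3 (73.9 TPM, against 131 to 226 TPM in the other S452A libraries and 164 to 323 TPM in WT libraries), and so was the cycling cell sum (202 TPM, against 249 to 392 and 306 to 401 TPM). WT library 3 held the highest fibroblast sum and the lowest macrophage sum (17828 TPM), and S452A library 3 the highest neutrophil sum (65.4 TPM). The T cell sum was the highest of its genotype in both, at 135 TPM in S452A library 3 and 126 TPM in WT library 3. The part of these cells in the result was not tested.

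**Figure D3:**
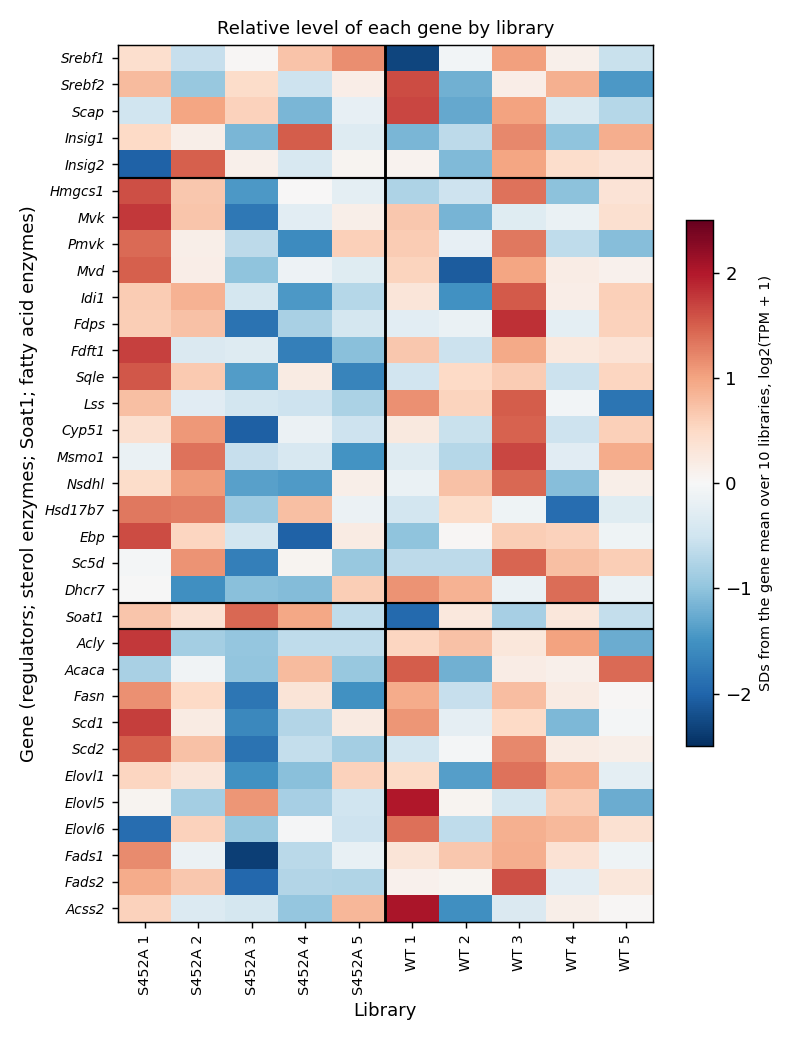
Level of each gene in each library, as SDs from the gene's mean over 10 libraries of log2(TPM + 1); rows are genes by role, columns are S452A libraries 1 to 5 and then WT libraries 1 to 5. Most sterol and fatty acid enzymes are high in S452A library 1 and WT library 3 and low in S452A library 3. The 5 regulators are all above their mean in WT library 3. In S452A library 3, 4 of them are above it, and Insig1 is low there.

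Enzymes of the arms varied together between libraries. Over the 10 libraries, the median Pearson r of log2(TPM + 1) was 0.48 over the 120 pairs of sterol enzymes, 0.38 over the 55 pairs of fatty acid enzymes and 0.44 over the 176 pairs between the arms, against 0.01 over all 97015485 pairs of genes tested. Of these pairs, 13.3%, 16.4% and 11.9% in that order reached an r of 0.7, against 2.35% of all pairs. The median between the arms thus lay between those within each arm. All values come from the same 10 libraries scaled to a fixed total, so the pairs are not independent and no p is given. With the genotype means removed the medians were 0.49, 0.35 and 0.45 in the same order. Without S452A library 3 and WT library 3 they were 0.36, 0.30 and 0.30, and without S452A library 1 as well they were 0.27, 0.20 and 0.21, so much of the covariation rests on these 3 libraries. Both of these choices of libraries were made after the data were seen.

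**Figure D4:**
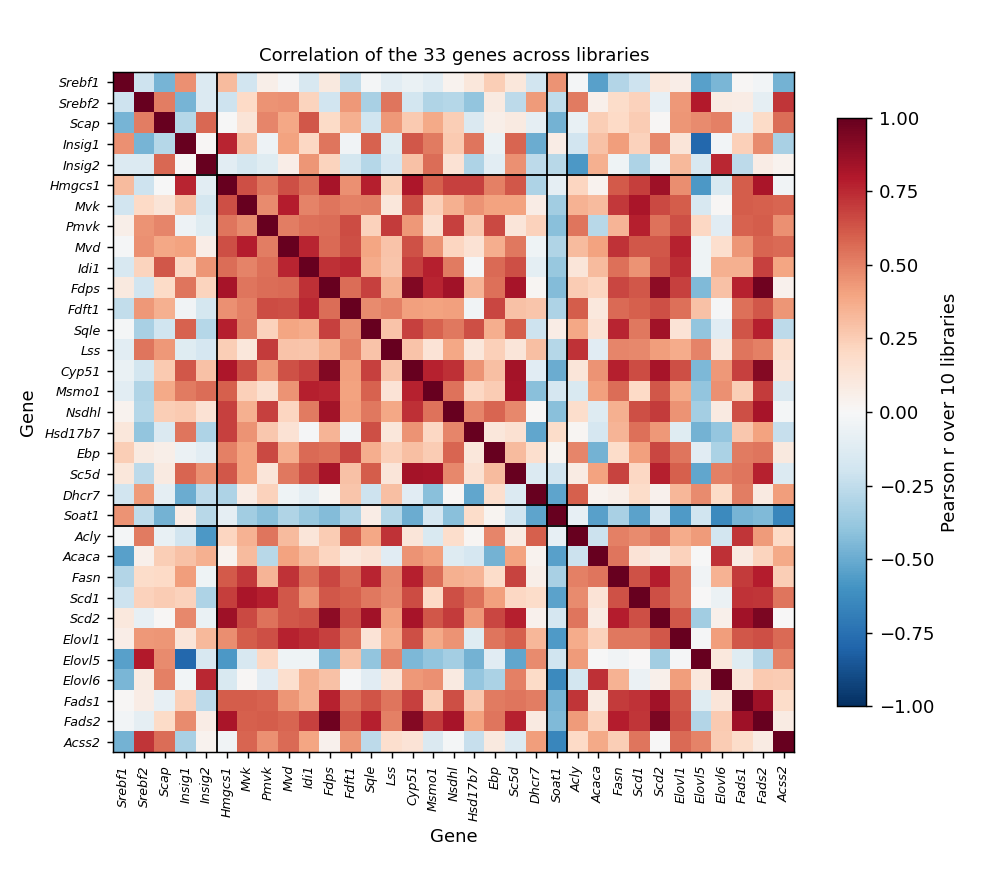
Pearson r over 10 libraries between each pair of the 33 genes (log2(TPM + 1)), ordered by role with lines between roles. The block of sterol enzymes and its strip against the fatty acid enzymes are mostly positive (medians 0.48 and 0.44). Soat1, Elovl5, Dhcr7, Srebf1, Srebf2 and Insig2 have medians below 0 with the other sterol enzymes. Insig1 has a median of 0.35 with them and Scap 0.22.

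Members differed in how far they joined this pattern. Cyp51 and Hmgcs1 had the highest median r with the other sterol enzymes (0.65 and 0.62), and Fads1 and Scd2 with the other fatty acid enzymes (0.66 and 0.58). Dhcr7 (-0.05) and Hsd17b7 (0.21) were the sterol enzymes with the lowest, and they are the 2 with the largest genotype differences in that arm. They also had the lowest mean levels of the sterol enzymes, 5.12 and 2.5 TPM over the 10 libraries. The part of low level in their r or their differences was not tested. In the fatty acid arm the lowest were Elovl5 (-0.01), Acaca (0.18) and Elovl6 (0.19). The pair with the highest r crossed the arms, Fdps and Fads2 (0.97), and the lowest was Insig1 with Elovl5 (-0.78). These pairs were picked from 528 after their values were seen.

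Transcripts of the SREBP genes had lower medians than the enzymes had among themselves. The median r of Srebf2 was -0.05 with the sterol enzymes (range -0.40 to 0.53) and 0.18 with the fatty acid enzymes (range -0.09 to 0.80, the highest with Elovl5). That of Srebf1 was -0.02 and -0.20. Insig1, itself an SREBP target, had 0.35 and 0.23, Scap 0.22 and 0.25, and Insig2 -0.11 and -0.05. Soat1 ran against both arms, with a median of -0.30 over the sterol enzymes and -0.47 over the fatty acid enzymes, and its r was below 0 with 13 of the 16 and with 11 of the 11.

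Some marker lists moved with the arms and others did not. Genes of cycling cells had a median r of 0.48 with the sterol enzymes and 0.52 with the fatty acid enzymes, as high as the enzymes had among themselves, and fibroblast genes had 0.41 and 0.46. Macrophage genes had -0.25 and -0.08, T cell genes -0.13 and -0.12, and neutrophil genes -0.24 and -0.27. Lists with only 1 tested gene were type 1 dendritic cells (-0.37 and -0.38), B cells (-0.16 and -0.11) and epithelial tumour cells (0.29 and 0.15). The mean of each of the 8 cycling genes and each of the 8 fibroblast genes was lower in S452A than in WT libraries on the log2 scale, as for most of the enzymes. The summed cycling genes held 202 to 392 TPM in S452A libraries and 306 to 401 TPM in WT libraries. Their part in the covariation or in the signs of the differences was not tested.

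**Figure D5:**
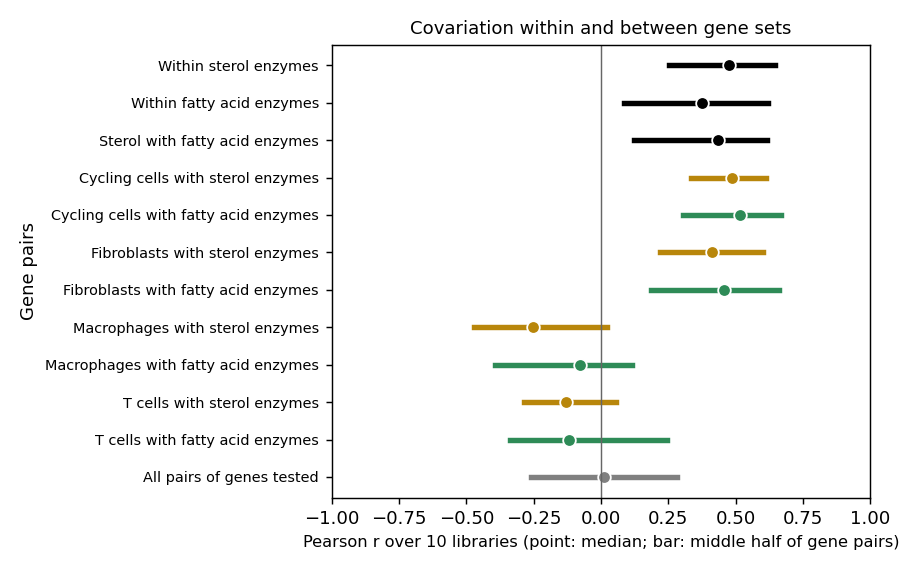
Median (point) and interquartile range (bar) of Pearson r over 10 libraries for gene pairs within and between the arms, between marker lists and each arm, and over all genes tested. The arms and the cycling and fibroblast lists lie between 0.38 and 0.52, the macrophage and T cell lists below 0, and all pairs of genes at 0.01.

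Of 21 pairs tested, few passed after adjustment. The pairs were chosen with earlier results of these data known, and the adjustment does not cover that choice. By Pearson r (permutation test with 100000 resamples, Benjamini-Hochberg over the 21), 1 pair passed, Fads1 with Fads2 (r = 0.85, p = 0.00214, adjusted p = 0.0449, n = 10 libraries). By Spearman rho 2 passed, Cyp51 with Msmo1 (rho = 0.85, p = 0.00285) and Hmgcs1 with Sqle (rho = 0.84, p = 0.00402), both with a permutation adjusted p of 0.0422. None of the 3 passed by both measures: the Spearman value of Fads1 with Fads2 was 0.75 (permutation p = 0.0175, adjusted p = 0.0917), and the Pearson values of the others were 0.77 (permutation p = 0.00784) and 0.78 (permutation p = 0.00896), each with an adjusted p of 0.0627.

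Leaving out the 2 libraries farthest from the median of the first gene gave 0.64 for Fads1 with Fads2, 0.87 for Cyp51 with Msmo1 and 0.65 for Hmgcs1 with Sqle. Fads1 with Fads2 no longer passed under most alternatives, and with S452A libraries 1 and 3 and WT library 3 left out its r was 0.35, so it rests on those libraries. Fads2 (minus strand) and Fads1 (plus strand) are neighbours on chromosome 19, 81.1 kb apart, as are Scd2 (plus) and Scd1 (minus), 87.6 kb apart. For Scd1 with Scd2 the r was 0.64 (permutation p = 0.0430, adjusted p = 0.114) and rho was 0.50 (permutation p = 0.145, adjusted p = 0.250). It was 0.07 without S452A libraries 1 and 3, so it too rests on them.

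The regulator pairs and the cross-arm pairs did not pass. The nearest of the regulator pairs was Hmgcs1 with Insig1, with r = 0.76 (permutation p = 0.0128, adjusted p = 0.0674). Its rho was 0.78 (permutation p = 0.0105, adjusted p = 0.0733), and its r was 0.76 without S452A library 1 and WT library 3. Srebf2 with Hmgcs1 had r = -0.21 (permutation p = 0.560, adjusted p = 0.629) and rho = -0.31 (permutation p = 0.388, adjusted p = 0.479). Srebf1 with Scd1 had r = -0.20 (permutation p = 0.575, adjusted p = 0.629) and rho = 0.03 (permutation p = 0.947, adjusted p = 0.947). Hmgcs1 with Fasn had r = 0.62 (permutation p = 0.0587, adjusted p = 0.123) and rho = 0.60 (permutation p = 0.0752, adjusted p = 0.197). Against cell markers, Sqle had r = -0.64 with Cd3e of T cells (permutation p = 0.0461, adjusted p = 0.114; rho = -0.64, permutation p = 0.0538, adjusted p = 0.161). Sqle with Col3a1 of fibroblasts had r = 0.64 (permutation p = 0.0441, adjusted p = 0.114; rho = 0.44, permutation p = 0.203, adjusted p = 0.304), and its r was 0.06 without S452A libraries 3 and 5. Sqle with the proliferation gene Mki67 had r = 0.60 (permutation p = 0.0648, adjusted p = 0.124; rho = 0.53, permutation p = 0.123, adjusted p = 0.250). Scd1 with Mki67 had r = 0.71 (permutation p = 0.0216, adjusted p = 0.0908; rho = 0.43, permutation p = 0.217, adjusted p = 0.304).

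The balance between members was compared as 6 log2 ratios within a library, and none passed (2-sided exact permutation tests, Benjamini-Hochberg adjusted p = 0.603 for each). These ratios too were chosen with earlier results of these data known. The largest difference was in Soat1 over Sqle, storage against synthesis. Soat1 exceeded Sqle by 4.36, 4.97, 10.6, 6.39 and 6.84-fold in TPM in S452A libraries 1 to 5, and by 3.73, 5.03, 3.75, 6.51 and 4.05-fold in WT libraries 1 to 5. S452A library 3 was above all others, and the rest overlapped. The log2 ratio was 2.57 ± 0.46 in S452A libraries and 2.10 ± 0.34 in WT libraries (SD, n = 5 each), a difference of 0.47 (exact permutation p = 0.103). Sqle over Fasn, a sterol against a fatty acid enzyme, was 0.16 ± 0.41 in S452A libraries and -0.11 ± 0.49 in WT libraries (SD, n = 5 each), a difference of 0.26. Hmgcs1 over Acaca differed by 0.27, Srebf2 over Srebf1 by -0.26, Insig1 over Insig2 by 0.21 and Scd2 over Scd1 by -0.14. With each library left out in turn, Srebf2 over Srebf1 ran from -0.39 to -0.04 (without WT library 1), Insig1 over Insig2 from -0.07 (without S452A library 1) to 0.45 and Scd2 over Scd1 from -0.36 to 0.02 (without WT library 4).

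Beyond the 33, 46 genes of the same pathways were listed and 43 tested, and 0 passed in either direction (limma adjusted p), with 3 of the 43 at an unadjusted p under 0.05, against 4.74% of all genes. Of 6 further sterol synthesis genes 0 passed, with a median difference of 0.13, and the difference was below 0 for 2 and above 0 for 4. Acat2 differed by 0.24 and Lbr by -0.26. Of 8 genes of SREBP processing and sterol sensing 0 passed, with a median of 0.02, and the SREBP proteases Mbtps1 and Mbtps2 differed by -0.24 and 0.19. Of the 7 tested genes of cholesterol uptake and transport 0 passed, with a median of 0.15.

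The 3 genes with an unadjusted p under 0.05 were Stard4, Ch25h and Cyp27a1, each with a lower mean in S452A libraries. Stard4, a carrier that moves cholesterol between membranes, was at 5.43, 5.23, 5.58, 6.10 and 4.95 TPM in S452A libraries 1 to 5, and at 9.21, 7.40, 9.91, 8.01 and 5.89 TPM in WT libraries 1 to 5. Only S452A library 4 and WT library 5 crossed, and the difference was -0.48 (SE 0.16, limma unadjusted p = 0.0104, limma adjusted p = 0.952, exact permutation p = 0.0159). Ch25h, which makes a hydroxylated cholesterol, an oxysterol that holds SREBP back, was at 75.3, 56.0, 76.9, 89.8 and 95.6 TPM in S452A libraries 1 to 5, and at 140, 135, 103, 95.1 and 146 TPM in WT libraries 1 to 5. Only S452A library 5 and WT library 4 crossed, and the difference was -0.65 (SE 0.16, limma unadjusted p = 0.00187, limma adjusted p = 0.90, exact permutation p = 0.0159). Cyp27a1, which makes a side-chain oxysterol, was at 13.4 ± 5.40 TPM in S452A libraries and 21.7 ± 4.84 TPM in WT libraries (SD, n = 5 each), a difference of -0.70 (SE 0.24, limma unadjusted p = 0.0137, limma adjusted p = 0.952, exact permutation p = 0.0397).

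Of the 8 oxysterol receptors and targets, to which Ch25h and Cyp27a1 were counted, 0 passed, with a median of -0.05, and the LXR target Abca1 differed by 0.30 (SE 0.23). Of the 14 tested genes of further fatty acid synthesis and use 0 passed, with a median of 0.03. The difference was below 0 for 5 of them and above 0 for 9. Acsl4, which activates polyunsaturated fatty acids, differed by 0.27 and Tecr, a reductase of chain elongation, by -0.19. Plin2, which coats lipid droplets, was at 1310 ± 442 TPM in S452A libraries and 1081 ± 160 TPM in WT libraries (SD, n = 5 each), a difference of 0.22 (SE 0.20). Acacb and Elovl7 did not reach the expression filter.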

How the data were processed

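Bulk RNA sequencing was done on 10 libraries, 5 S452A and 5 WT, matched to the table's columns through the sample descriptions, with groups from the genotype labels. Reads were processed with STAR (2.7.9a), RSEM (1.3.0) and the build GRCm38.p6, per the submitters' processing notes. Not given in the sources used here are the annotation release, the strand setting and other parameters. A single table of TPM was deposited by the authors, in which each library sums to 1000000 within rounding. Since TPM holds no counts, the depth is unknown, counting intervals are left out, and a change in abundant genes shifts the TPM of all others.

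Values were analysed as log2(TPM + 1), a scale that understates changes of low genes. Genes with 1 TPM or more in at least 5 libraries (13930 of 55487) were fitted with limma 3.58.1 (R 4.3.3, trend, 2-sided, genotype as the only term, Benjamini-Hochberg threshold 0.05). Single values were compared by 2-sided exact permutation, with a smallest possible p of 0.00794. The 21 pairs, 6 ratios, 5 pathway lists and marker lists, like the 33 members, were chosen with earlier results of these data known. All 33 members are named, and of each pathway list the 2 genes of smallest unadjusted p, except that some genes of these lists are not reported here. Abca1, Plin2 and the pairs of highest and lowest r were named after their values were seen. Other steps used Python 3.11.15 (scipy 1.17.1, numpy 2.4.6, pandas 2.3.3, matplotlib 3.10.9).

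All 33 members matched GENCODE M21 (GRCm38), 32 of them with the same version. Copies were sought among its transcripts with blastn 2.17.0 (95% identity or more across 0.8 or more of the shorter sequence). The fit was checked on simulated data. Alternatives were other pseudocounts, filters, scalings and moderation, the exact permutation test, a replicate block, summed copies and libraries left out, the last of these also in sets chosen after the data were seen, as were the summed copies. The labels do not say whether the mouse numbers pair the libraries. Same-numbered deviations did not move together, which does not exclude a pairing, and the block is an alternative only.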

Additional observations from a re-analysis of the deposited data

Results flagged for a closer look

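In 84 groups of 5 libraries (each gene, each ratio, each arm mean and the gap between the arms, in each genotype), the highest or lowest library was set against the gap to its neighbour, and 3 stood apart. Chance marks about 1 in 20 groups, so this is no more than chance gives. Acly in S452A library 1 was at 38.2 TPM, against 24.4 to 25.7 TPM in the other S452A libraries. Mvd in WT library 2 was at 6.81 TPM, against 10.8 to 12.9 TPM in the other WT libraries. Fads2 in WT library 3 was at 9.31 TPM, against 4.57 to 5.65 TPM in the other WT libraries.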

How the results depend on the processing

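The number of members passing was 0 under every alternative run: pseudocounts of 0.1 and 5, other filters, median rescaling, quantile normalization, robust moderation, moderation without a trend, the exact permutation test, summed copies and each library left out. The number of genes passing was 1, and 0 with a filter of 1 TPM in all 10 libraries (565 at an unadjusted p under 0.05; Acss2 was then not tested) and 0 with the exact permutation test. The mouse number as a replicate block gave 0 members, 1 gene and 0 ratios passing. Correlations of same-numbered deviations were -0.15 to 0.07, and 0 of 10 libraries matched its own number best. Of all genes, 46.6% had a difference above 0, against 49.2% after median rescaling and 49.1% after quantile normalization.

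The mean gap between the arms was 0.52 log2 units and 0.33 with a pseudocount of 5, which shrinks low genes most. The number of pairs passing by Pearson r was 1. It was 0 with a pseudocount of 5, with median rescaling, with the genotype means removed and with S452A libraries 1 and 3 and WT library 3 left out. It was 0 to 4 with each library left out, and the 4 came without S452A library 5. Without the 3 libraries named above, Scd1 with Scd2 had an r of -0.17. The median r ran from 0.40 to 0.53 within the sterol arm, 0.27 to 0.50 within the fatty acid arm and 0.33 to 0.47 between them with each library left out. With copies summed it was 0.40, 0.44 and 0.44 in that order. Unknown depth, few libraries and shared reads with copies limit the precision of single members.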
